A study of Mus musculus with 45 samples.

Results

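The expression of 10 genes that run the methionine cycle or place methyl groups on DNA was followed in cell lines from mouse mammary tumours, both in control medium and after removal of cysteine and cystine. The genes are Mat2a, Mat2b, Ahcy, Ahcyl1, Ahcyl2, Mtr, Mtrr, Dnmt1, Dnmt3a and Dnmt3b. They were taken by symbol from a table of read counts for 28454 genes in 45 polyadenylated RNA libraries, and each symbol occurred once. All are protein-coding genes on GRCm38, with Mat2b at chr11:40679314-40695203, Ahcyl1 at chr3:107663118-107696560, Ahcyl2 at chr6:29768011-29912310, Mtr at chr13:12182712-12258113 and Mtrr at chr13:68560780-68582149. The methyltransferase genes are Dnmt1 at chr9:20907209-20959888, Dnmt3a at chr12:3806007-3914443 and Dnmt3b at chr2:153649450-153687730, and the positions of Mat2a and Ahcy are given with their sequences. All cells came from tumours of MMTV-cMYC mice, in which the mouse mammary tumour virus promoter drives the cMYC transgene mainly in mammary epithelium, so every group carried that transgene.

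MYAZ16.1e, MYAZ12.3i and MYAZ6.6g are 3 separately derived lines from primary mammary tumours, and MYAZ12.3i-NDI1 is MYAZ12.3i labelled as carrying NDI1. Myc310 is 1 line from a mouse with multiple tumours. LM1, LM2 and LM3 were isolated from lungs after Myc310 cells had been injected into the mammary fat pad of FVB/NJ mice, and LM1-LM, LM2-LM and LM3-LM from lungs after injection of LM cells, so the LM and LM-LM lines all descend from Myc310. Per the labels, cells were seeded at 250000 per well, and 24 h later the medium was exchanged for 6 h. Control medium was sampled in all 11 lines and cysteine/cystine-deprived medium in 4 of them (MYAZ16.1e and the lineage Myc310, LM1, LM1-LM), with 3 cultures in each of the 15 groups. The cultures of a line were technical replicates per the series description, so the p-values of the deprivation and NDI1 comparisons measure the spread between cultures only. In the comparison of subtypes the cultures of 3 lines form 1 group, except for Myc310, and the spread there mixes differences between lines and between cultures. In bulk RNA, a change in the share of cells that express a gene and a change in RNA per cell cannot be told apart.

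The methionine cycle makes S-adenosylmethionine, the methyl donor of most methylation reactions. MAT2A joins methionine to the adenosine of ATP, methyltransferases use the product and release S-adenosylhomocysteine, AHCY splits that inhibitor into adenosine and homocysteine, and MTR, kept active by MTRR, methylates homocysteine back to methionine. Homocysteine can instead leave the cycle through transsulfuration, which makes cysteine. Among the methyltransferases that draw on this donor, DNMT1 copies CpG methylation onto newly replicated DNA, while DNMT3A and DNMT3B can methylate unmethylated CpGs.

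Total counts ranged from 19517900 to 29020000 per library, with a median of 22899900. Levels are given as CPM, the counts of a gene per 1000000 counts of its library, after normalisation with the trimmed mean of M-values (TMM). After deprivation, 6 of 6 stress-response genes examined (Chac1, Ddit3, Trib3, Asns, Atf3 and Cth) rose in each treated line. Of all genes tested, 26.6 to 36.5% rose in these lines. The 6 genes were chosen with earlier results known, so their number is no test of the medium. Their mean summed level went from 189 to 1427 CPM for MYAZ16.1e and 228 to 1970 CPM for LM1-LM. The summed luminal and epithelial markers were at 332 to 2380 CPM. Keratins carried this sum, whereas the defining epithelial markers Epcam and Cdh1 had at most 21 and 6 counts in a library. Leukocyte markers summed to 2.70 to 18.7 CPM, endothelial markers to 0.0469 to 6.56 CPM and lung epithelial markers to 0.0504 to 1.97 CPM.

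Sequence stretches of Mat2a and Ahcy are shown first, those of Mat2a because they match a known binding sequence in its messenger, and those of Ahcy because they bear on how its counts can be read. Mat2a lies on the minus strand of chromosome 6 at 72432799 to 72439558 (GRCm38). Its 3′ untranslated region is 1494 bases long in the GENCODE vM21 transcript and held 6 copies of TACAGAGAA or TACAGAAAA, the sequence that the RNA methyltransferase METTL16 is known to bind in hairpins of this messenger. No copy lay upstream of that region. Each site is shown with 10 bases on either side, in the transcript's sense with T for U, and capitals mark the motif.
Mat2a site at position 40: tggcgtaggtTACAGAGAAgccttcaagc
Mat2a site at position 824: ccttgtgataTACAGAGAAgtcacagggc
Mat2a site at position 1003: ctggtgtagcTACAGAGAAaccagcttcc
Mat2a site at position 1118: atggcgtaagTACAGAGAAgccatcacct
Mat2a site at position 1229: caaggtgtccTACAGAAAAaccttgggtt
Mat2a site at position 1337: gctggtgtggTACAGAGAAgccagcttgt
Of 20633 genes with an annotated 3′ untranslated region, 781 (3.79%) held at least 1 such motif in the sense strand, 6 held at least 3, and Mat2a alone held 6, the most of any gene. These matches describe the sequence, and no RNA modification was measured.

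Ahcy lies on the minus strand of chromosome 2 at 155059310 to 155074497, and the genome holds a near-identical copy of it. The copy (ENSMUSG00000048087) is listed under the symbol Ahcyl in the count table and as Gm4737, a protein-coding gene, in GENCODE vM21. Both coding sequences are 1299 bases long and differ at 4 positions, C459T, G474A, C1050T and C1068T, counted from 1 at the A of the start codon with the Ahcy base first. The stretches around these differences are printed with the differing bases in capitals.
Ahcy coding bases 429 to 488: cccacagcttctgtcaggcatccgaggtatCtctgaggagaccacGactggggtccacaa
Ahcyl coding bases 429 to 488: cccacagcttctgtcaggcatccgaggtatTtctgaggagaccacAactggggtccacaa
Ahcy coding bases 1020 to 1079: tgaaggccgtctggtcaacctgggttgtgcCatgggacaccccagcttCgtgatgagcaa
Ahcyl coding bases 1020 to 1079: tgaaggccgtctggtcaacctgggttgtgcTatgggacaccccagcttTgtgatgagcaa
Of 1200 coding stretches of 100 bases in Ahcy, 967 (80.6%) occurred unchanged in the copy. In the 45 libraries 75.6 to 79.7% of the counts assigned to the pair went to the copy. How reads were shared between the pair is therefore uncertain, and the Ahcy differences between media, subtypes and the NDI1 pair are given below for Ahcy alone and with the counts of both summed. The levels and the tests over lines are those of Ahcy alone.

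**Figure D1:**
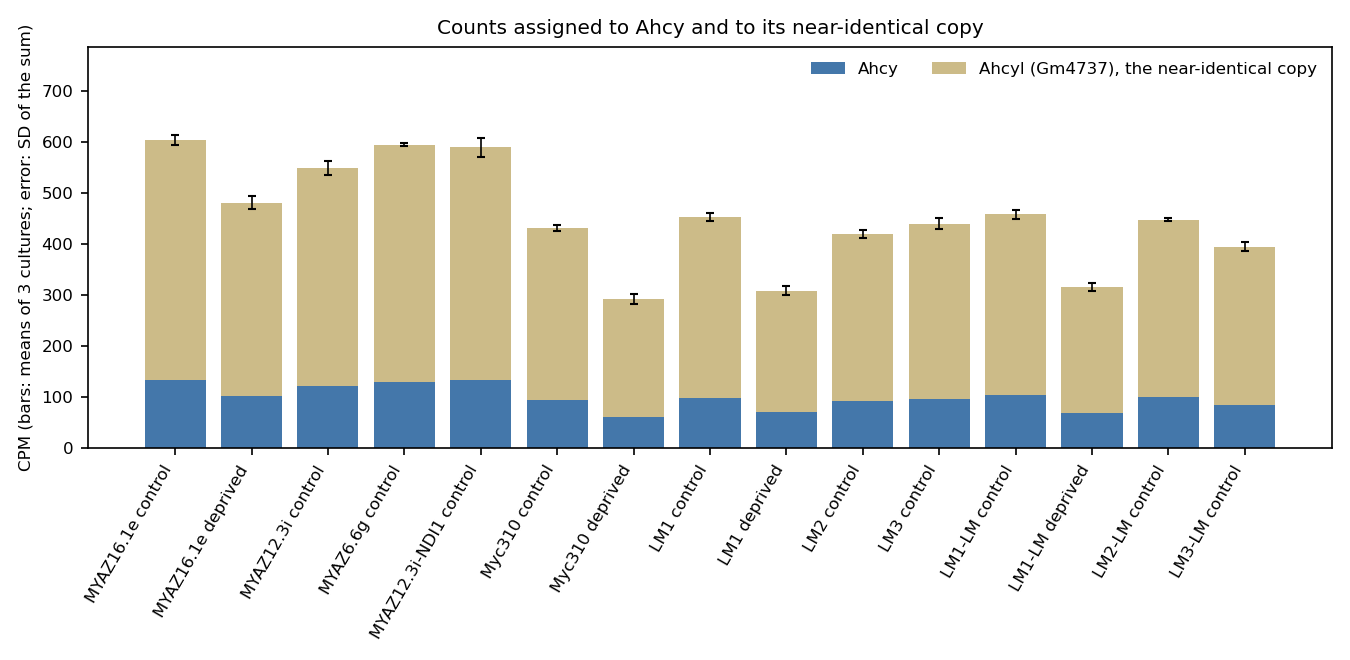
Mean CPM assigned to Ahcy and to its near-identical copy (symbol Ahcyl) in each of the 15 groups, stacked, with the SD of the sum over 3 cultures. The copy took a median of 77.9% of the summed counts, and the sum was lower in the deprived than in the control cultures of each treated line.

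Other near-identical copies took few reads. The Mat2a pseudogene Gm9523 had at most 5 counts in a library and the Ahcy copy Gm9826 at most 7. Genes on the opposite strand overlap exons of Mat2a, Ahcy, Ahcyl2, Dnmt3a and Dnmt3b. The kit keeps strand, but whether strand was used in counting is not given in the sources used here, so reads of such partners cannot be told apart from those of the members.

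Per length of exonic sequence, Mat2a was the most abundant member as the genes were counted, with a median of 89.5 FPKM (CPM divided by the exonic length in kilobases) over the 45 libraries. Dnmt1 followed with 54.0 FPKM, Ahcyl1 with 35.9 FPKM and Ahcy with 35.4 FPKM without the reads assigned to its copy. With the copy's counts added, over the length of Ahcy, the pair had a median of 159 FPKM and so exceeded Mat2a. Mat2b was at 11.1 FPKM, Mtrr at 8.15 FPKM and Mtr at 5.94 FPKM. Dnmt3a had 2.26 FPKM, Ahcyl2 1.90 FPKM and Dnmt3b 0.303 FPKM, so the maintenance methyltransferase messenger exceeded both de novo methyltransferase messengers in these cells. From the lowest to the highest library, Ahcyl1 spanned 1.24-fold (211 to 262 CPM) and Dnmt1 1.53-fold (287 to 439 CPM). Mat2a spanned 2.95-fold and Dnmt3a 3.20-fold. Dnmt3b ran from 0.129 to 6.48 CPM, from 3 to 159 counts, so its values carry the largest counting error.

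The first comparison asked how each line changed over 6 h without cysteine and cystine. Across the 4 lines the synthase Mat2a, the hydrolase Ahcy, Dnmt1 and Dnmt3a fell, and the remethylation genes Mtr and Mtrr rose. In MYAZ16.1e 2 of the 10 members rose and 5 fell, where 53.7% of all 13400 genes tested were called in either direction by edgeR's quasi-likelihood test at an adjusted p under 0.05. In Myc310 2 rose and 7 fell against 66.8% of all genes called, in LM1 3 rose and 7 fell against 71.1%, and in LM1-LM 3 rose and 6 fell against 72.4%. Most genes were thus called in each line, and the share of the 10 members called lay above that background; since members were chosen with results known, nothing is read from that excess. The median log2 fold change of the members was -0.23 in LM1 and in LM1-LM, -0.30 in Myc310 and -0.14 in MYAZ16.1e, beside medians between -0.01 and 0 over all genes tested.

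**Figure D2:**
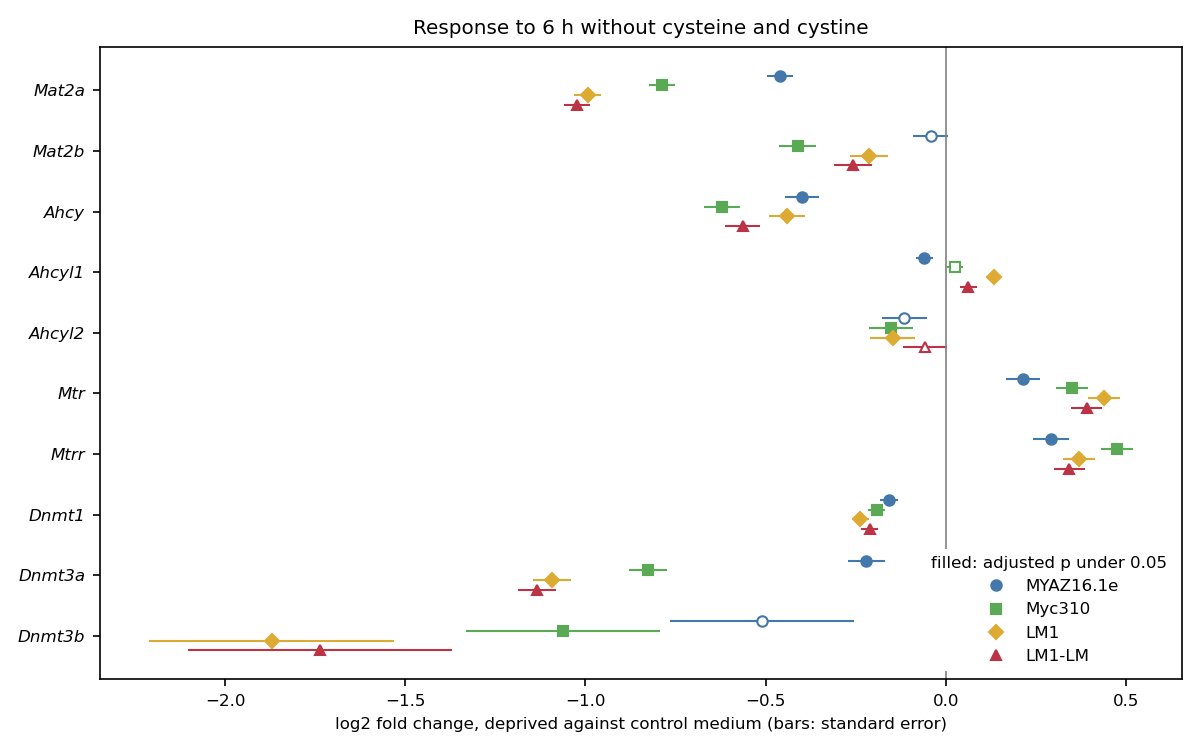
Log2 fold change of each member after deprivation against control medium in the 4 treated lines, with standard errors from the edgeR fit. Filled symbols passed an adjusted p of 0.05. Mat2a and Dnmt3a lie furthest to the left of the well-counted genes in Myc310, LM1 and LM1-LM, and Mtr and Mtrr lie right of zero in all 4 lines.

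Mat2a, which encodes the catalytic subunit of the S-adenosylmethionine synthase found outside adult liver, fell in all 4 lines, and by more in Myc310, LM1 and LM1-LM than in MYAZ16.1e. In MYAZ16.1e the control cultures were at 461, 475 and 476 CPM and the deprived cultures at 357, 339 and 334 CPM, so the fitted level fell by 27.3%. In Myc310 control cultures had 572, 580 and 575 CPM and deprived cultures 352, 339 and 319 CPM, and it fell by 42.1%. In LM1 the values went from 469, 482 and 477 CPM to 247, 233 and 220 CPM, and it fell by 49.8%. Control and deprived cultures did not overlap in any of these lines. In LM1-LM control cultures had 398, 436 and 434 CPM and deprived cultures 207, 204 and 197 CPM, and it fell by 50.8%. On the log2 scale the change was -1.02 (SE 0.0372) in LM1-LM, -0.99 (SE 0.0369) in LM1, -0.79 (SE 0.0359) in Myc310 and -0.46 (SE 0.0360) in MYAZ16.1e. The adjusted p ran from 6.18e-21 in LM1-LM to 3.64e-12 in MYAZ16.1e (edgeR's quasi-likelihood test, Benjamini-Hochberg). Between 9.17 and 11.4% of all genes tested had a lower fold change than Mat2a in the same line.

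The deprived MYAZ16.1e cultures thus kept more Mat2a messenger than the deprived LM1 and LM1-LM cultures, although MYAZ16.1e and LM1 did not differ beyond their spread in control medium (470 ± 8.21 and 476 ± 6.97 CPM, SD, n = 3 each). The difference of the log2 fold changes against MYAZ16.1e was -0.56 for LM1-LM (adjusted p = 1.07e-10), -0.53 for LM1 (adjusted p = 3.60e-10) and -0.33 for Myc310 (adjusted p = 4.96e-06), from interaction terms of the same edgeR fit. These 3 interaction contrasts share the MYAZ16.1e cultures and are not independent of one another.

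Mat2b encodes the regulatory subunit of the same enzyme. In MYAZ16.1e its control cultures (66.0, 68.6 and 67.4 CPM) and deprived cultures (64.4, 65.2 and 67.3 CPM) overlapped, and the log2 fold change was -0.04 with a 95% interval from -0.14 to 0.05. In Myc310 the level fell from 63.4, 62.3 and 61.1 CPM to 49.8, 48.1 and 44.0 CPM, a log2 fold change of -0.41. The falls in LM1 and LM1-LM were -0.21 and -0.26 on the log2 scale, and all 3 passed edgeR's quasi-likelihood test (largest adjusted p = 0.00058). The fall of Mat2b was larger than in MYAZ16.1e in Myc310 by 0.37, in LM1 by 0.17 and in LM1-LM by 0.21 (adjusted p = 8.89e-05, 0.0457 and 0.0115 in edgeR's interaction test). The LM1 call was lost in 9 of 18 alternative analyses, 8 of which left out 1 culture. The LM1-LM call held in 17 of 18, and that difference ran from -0.26 to -0.14 with 1 culture left out.

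Ahcy, the hydrolase that removes S-adenosylhomocysteine, fell in all 4 lines. Control cultures of MYAZ16.1e had 123, 129 and 146 CPM and deprived cultures 98.1, 105 and 102 CPM. In Myc310 the mean went from 94.2 ± 4.67 CPM to 61.8 ± 2.74 CPM (SD, n = 3 each). LM1 went from 100, 98.2 and 99.3 CPM to 72.7, 70.2 and 70.9 CPM, and LM1-LM from a mean of 104 CPM to 68.7 CPM. The deprived cultures lay below the controls of their own line in every case. Fold changes on the log2 scale of -0.40, -0.62, -0.44 and -0.56, in the order MYAZ16.1e, Myc310, LM1, LM1-LM, all passed (largest adjusted p = 1.76e-08 by edgeR's quasi-likelihood test). With the counts of Ahcy and its copy summed they were -0.34, -0.57, -0.52 and -0.50.

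Whether the Ahcy response differed between lines depended on how the copy was treated. Counted alone, the difference from MYAZ16.1e was -0.22 (adjusted p = 0.0109) in Myc310, -0.16 (adjusted p = 0.0429) in LM1-LM and -0.04 (adjusted p = 0.661) in LM1 by edgeR's interaction test. The Myc310 call held in 17 of 18 alternative analyses. The LM1-LM call was lost in 9 of 18 alternative analyses, with the lowest size, -0.11, without the first control culture of MYAZ16.1e (adjusted p = 0.157). Summed with the copy, it was -0.24 for Myc310, -0.16 for LM1-LM and -0.18 for LM1, which then passed as well (adjusted p = 0.000229).

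The Ahcy-like genes moved less. Ahcyl1, whose product binds inositol trisphosphate receptors and is not thought to hydrolyse S-adenosylhomocysteine, had control cultures at 222, 222 and 217 CPM and deprived cultures at 211, 211 and 214 CPM in MYAZ16.1e. In LM1 it went from 244, 241 and 248 CPM to 262, 261 and 261 CPM. Its log2 fold change was 0.13 in LM1 (adjusted p = 5.04e-06), 0.06 in LM1-LM (adjusted p = 0.0150), 0.03 in Myc310 (adjusted p = 0.338) and -0.06 in MYAZ16.1e (adjusted p = 0.0303) by edgeR's quasi-likelihood test. A fall in MYAZ16.1e thus stood beside a rise in LM1 and LM1-LM, and the interaction test called the difference from MYAZ16.1e in all 3 other lines (0.19 for LM1, 0.12 for LM1-LM and 0.08 for Myc310, the last lost in 8 of 18 alternative analyses). Ahcyl2 showed log2 fold changes between -0.15 and -0.06, with overlapping control and deprived cultures in Myc310, LM1 and LM1-LM. It passed in Myc310 (adjusted p = 0.0279) and LM1 (adjusted p = 0.0353) only, and both calls were lost under other settings, as was that of Ahcyl1 in MYAZ16.1e and LM1-LM.

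The remethylation pair moved in the opposite direction to Mat2a and Ahcy. Mtr, the cobalamin-dependent methionine synthase, rose from 38.1, 41.6 and 39.5 CPM to 48.5, 45.2 and 45.3 CPM in MYAZ16.1e. In Myc310 it rose from 53.6, 56.1 and 53.5 CPM to 71.0, 70.5 and 68.7 CPM. In LM1 it rose from 59.0, 57.2 and 61.4 CPM to 77.6, 81.5 and 75.8 CPM. No deprived culture overlapped the controls of its line, and LM1-LM went from a mean of 59.4 CPM to 76.0 CPM. These were log2 fold changes of 0.21, 0.35, 0.44 and 0.39 in that order of lines, with the largest adjusted p at 0.00032 in MYAZ16.1e (edgeR's quasi-likelihood test). The rise exceeded that of MYAZ16.1e by 0.22 for LM1 (adjusted p = 0.00429) and by 0.18 for LM1-LM (adjusted p = 0.0217), which missed the threshold without any 1 of 4 single cultures, while the 0.14 in Myc310 missed the threshold (95% interval 0.01 to 0.26, adjusted p = 0.0976).

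Mtrr, the reductase that returns oxidised cobalamin of methionine synthase to its active state, rose from 26.6, 25.7 and 25.2 CPM to 33.9, 32.3 and 29.0 CPM in MYAZ16.1e. In Myc310 it rose from 40.4, 38.9 and 39.2 CPM to 56.7, 52.7 and 56.8 CPM. The mean of LM1 went from 44.2 to 55.7 CPM and that of LM1-LM from 45.5 to 56.3 CPM, again without overlap. These are log2 fold changes of 0.29, 0.47, 0.37 and 0.34 (largest adjusted p = 1.03e-05 by edgeR's quasi-likelihood test). Only the Myc310 response was called different from MYAZ16.1e, by 0.18 (adjusted p = 0.0294), and that call was lost in 7 of 18 alternative analyses, with a difference of 0.13 without the third deprived culture of MYAZ16.1e. The 95% interval of the difference was -0.05 to 0.21 for LM1 and -0.08 to 0.18 for LM1-LM.

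**Figure D3:**
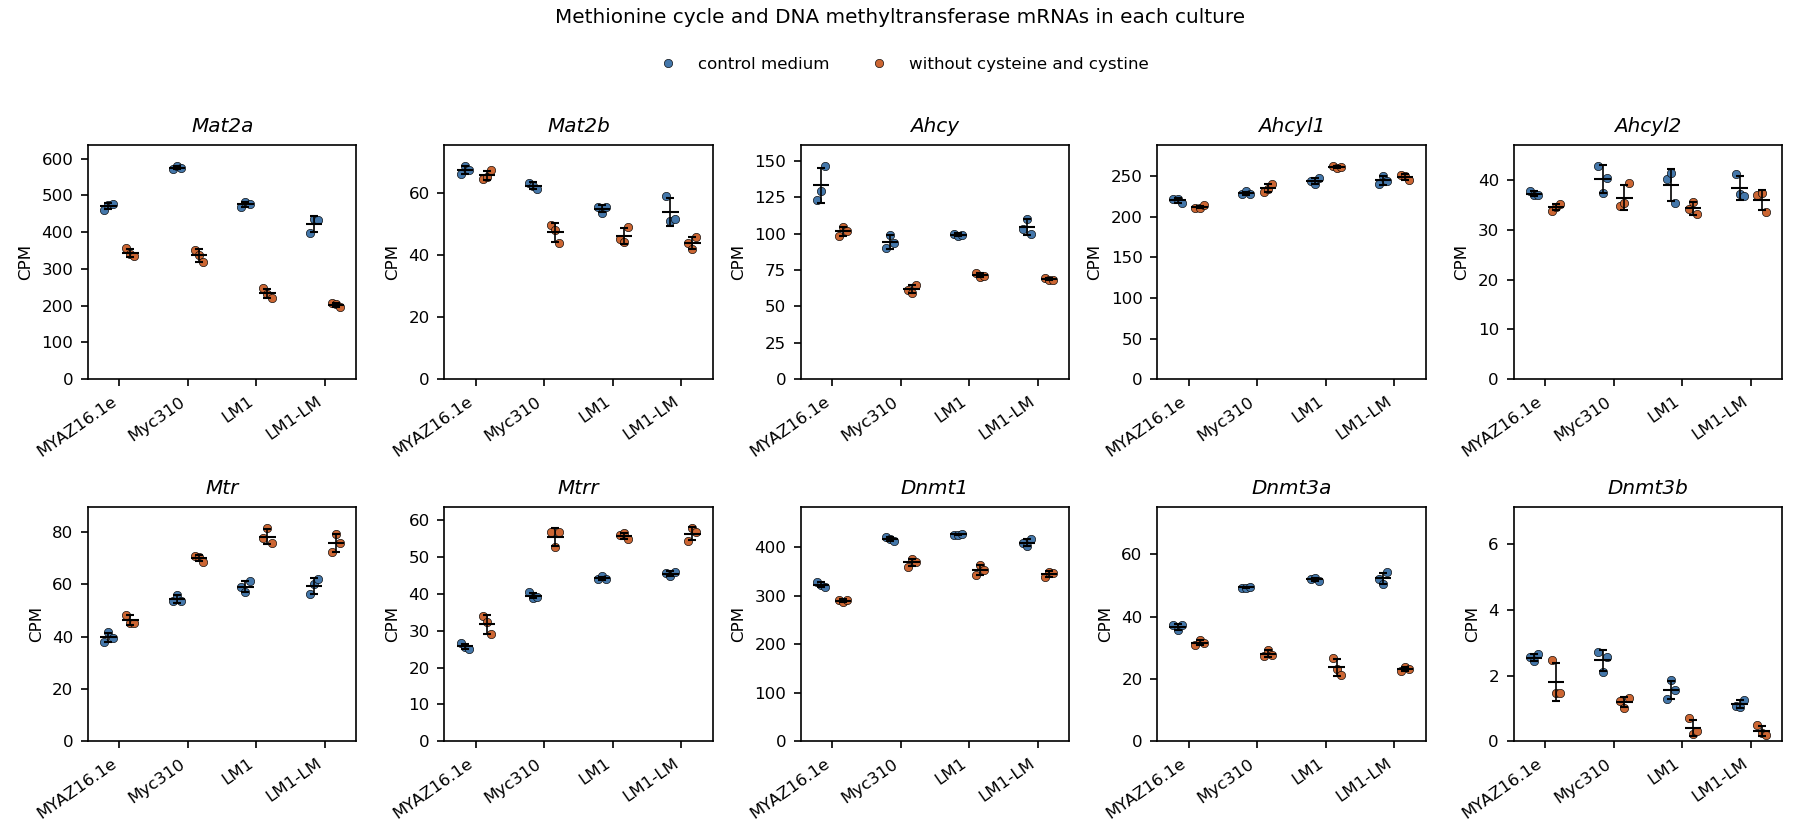
CPM of each member in every control and deprived culture of the 4 treated lines, with the group mean and SD as a line and bars; each axis starts at 0. For Mat2a, Ahcy, Mtr, Mtrr, Dnmt1 and Dnmt3a the 3 deprived cultures of each line lie wholly to one side of its 3 control cultures.

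Among the DNA methyltransferases, Dnmt3a fell in all 4 lines, and by more in Myc310, LM1 and LM1-LM than in MYAZ16.1e. In MYAZ16.1e control cultures had 37.3, 35.6 and 37.2 CPM and deprived cultures 30.8, 32.6 and 31.5 CPM, so the fitted level fell by 14.2%. In Myc310 the level went from 49.2, 49.2 and 49.6 CPM to 27.2, 29.4 and 27.6 CPM, and it fell by 43.6%. In LM1 it went from 51.9, 52.4 and 51.3 CPM to 26.6, 23.2 and 21.3 CPM, and it fell by 53.1%. The control cultures of Myc310, LM1 and LM1-LM thus lay above those of MYAZ16.1e, and after deprivation the order was inverted, with MYAZ16.1e the highest. LM1-LM went from 52.0, 50.4 and 54.1 CPM to 22.5, 23.8 and 23.2 CPM, and it fell by 54.5%. These falls were log2 fold changes of -0.22 (SE 0.0520), -0.83 (SE 0.0514), -1.09 (SE 0.0529) and -1.14 (SE 0.0525), with adjusted p of 0.000626 in MYAZ16.1e and 2.65e-18 in LM1-LM by edgeR's quasi-likelihood test. The fall was larger than in MYAZ16.1e in LM1-LM by 0.92, in LM1 by 0.87 and in Myc310 by 0.61 (adjusted p = 7.38e-12, 2.78e-11 and 7.61e-08 in edgeR's interaction test). In MYAZ16.1e 24.1% of all genes tested had a lower fold change than Dnmt3a, beside 9.30 to 9.66% in the other 3 lines. Differences among Myc310, LM1 and LM1-LM were not tested.

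Dnmt1 fell by a similar, smaller amount in all 4 lines. MYAZ16.1e went from 328, 322 and 317 CPM to 292, 287 and 290 CPM, and LM1 from 426, 425 and 428 CPM to 342, 363 and 354 CPM. Its log2 fold change was -0.24 in LM1, -0.21 in LM1-LM, -0.19 in Myc310 and -0.16 in MYAZ16.1e (largest adjusted p = 1.71e-06 by edgeR's quasi-likelihood test). The difference from MYAZ16.1e was -0.03 in Myc310 (95% interval -0.10 to 0.03) and -0.05 in LM1-LM (-0.12 to 0.01). In LM1 it was -0.08 (adjusted p = 0.0490), a call that was lost in 11 of 18 alternative analyses.

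Dnmt1 is transcribed with DNA replication, so the level of S-phase genes is given beside it. All 14 listed S-phase genes (the MCM helicase subunits, Pcna, Rrm2 and others) fell in each of the 4 lines. Their summed level went from a mean of 3267 CPM to 2152 CPM (MYAZ16.1e), 3336 to 2175 CPM (Myc310), 3442 to 2034 CPM (LM1) and 3436 to 2023 CPM (LM1-LM). Their median log2 fold change lay between -0.60 and -0.75, beyond that of Dnmt1 in every line. The part of this shift in the Dnmt1 result was not tested.

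Binding sites for E2F, the factor family of S-phase genes, were searched as TTTCGCGC and TTTGGCGC on both strands of the promoter windows that RefSeq gives for the members (GRCm38.p6, 250 bases before to 50 after each start). Such a match occurred in 0.813% of 32851 windows. Of 19 windows of the 10 members only a Dnmt1 window held any, on the minus strand at chr9:20952574-20952873. It is printed because it holds 2 matches, in capitals, 1 of them on the reverse strand.
Dnmt1 promoter window: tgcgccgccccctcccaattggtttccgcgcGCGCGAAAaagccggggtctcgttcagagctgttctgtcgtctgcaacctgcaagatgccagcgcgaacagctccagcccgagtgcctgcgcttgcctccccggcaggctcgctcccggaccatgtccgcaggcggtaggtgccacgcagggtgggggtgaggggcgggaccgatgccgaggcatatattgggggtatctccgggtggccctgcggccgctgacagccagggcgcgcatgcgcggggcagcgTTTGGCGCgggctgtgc
The window is 69.7% G and C and holds 33 CpG pairs. The E-box CACGTG, which MYC can bind, occurred in 1 window of Dnmt3a and in no other member window, against 7.15% of all windows. TGATGNAA, the core of the element bound by C/EBP and ATF factors, occurred in no member window, against 3.97% of all windows. No binding was measured, and these letters say nothing of factors bound elsewhere.

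Dnmt3b, the other de novo methyltransferase, was near the lower end of detection. Most of its deprived cultures in LM1 and LM1-LM lay below the filter's minimum count of 10, so it passed the filter through other groups. The sizes and calls of its changes in these lines, and of their differences from MYAZ16.1e, are therefore uncertain. In LM1 Dnmt3b went from 1.29, 1.85 and 1.55 CPM to 0.697, 0.228 and 0.322 CPM, and in LM1-LM from 1.08, 1.04 and 1.26 CPM to 0.497, 0.252 and 0.188 CPM. Myc310 went from 2.72, 2.11 and 2.57 CPM to 1.22, 1.03 and 1.32 CPM. The control and deprived cultures did not overlap in any of these lines. LM1 had a log2 fold change of -1.87 (SE 0.340), LM1-LM one of -1.74 (SE 0.366) and Myc310 one of -1.06 (SE 0.270), all past the threshold (largest adjusted p = 0.000939 by edgeR's quasi-likelihood test). In MYAZ16.1e deprived cultures had 2.47, 1.47 and 1.48 CPM against 2.55, 2.44 and 2.65 CPM, and the change of -0.51 missed it (adjusted p = 0.0951). Without the first deprived culture it was -0.80 (adjusted p = 0.0188). The difference from MYAZ16.1e was called in LM1 (-1.36, adjusted p = 0.00851) as well as LM1-LM (-1.23, adjusted p = 0.0220), and was -0.55 in Myc310 (95% interval -1.28 to 0.18). The LM1-LM difference missed the threshold without the first deprived culture of MYAZ16.1e (-0.94, adjusted p = 0.0820) and without deprived culture 2 or 3 of LM1-LM.

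Over all members, the response differed from that of MYAZ16.1e for 2 members in the upward and 4 in the downward direction in Myc310, against 40.3% of all genes called. In LM1 the counts were 2 up and 5 down against 52.2%, and in LM1-LM 2 up and 5 down against 54.8%. The members' median differences were -0.13, -0.06 and -0.11, beside -0.02, 0.01 and 0.00 over all genes. Mat2a and Dnmt3a were called in all 3 contrasts under each of 18 alternative analyses.

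Genes that act next to the methionine cycle were counted next. Of 13 neighbours 11 were in the table, 9 were tested and 7 had at least 10 counts in all cultures of both media. Of these 7, 0 rose and 2 fell in MYAZ16.1e, 1 rose and 2 fell in Myc310, 0 rose and 3 fell in LM1, and 0 rose and 4 fell in LM1-LM (edgeR's quasi-likelihood test). Of all genes tested 53.7, 66.8, 71.1 and 72.4% were called in these lines in the same order, above the share of the neighbours in each. Adk, the adenosine kinase that clears the other product of the AHCY reaction, fell in all 4 lines, by 0.29, 0.32, 0.29 and 0.21 on the log2 scale. Mettl16, whose product acts on the Mat2a sites printed above, also fell in each line, with log2 fold changes of -0.21, -0.37, -0.41 and -0.50 (largest adjusted p = 2.70e-06, edgeR). The Mettl16 fall was larger than in MYAZ16.1e in all 3 other lines by edgeR's interaction test. Slc25a26, the mitochondrial carrier of S-adenosylmethionine, fell in LM1 (-0.54) and LM1-LM (-0.63), and Gamt, a methyltransferase of creatine synthesis, in LM1-LM (-1.06). Mmachc, which processes cobalamin, rose in Myc310 (0.23). Nnmt, which methylates nicotinamide, had 0 or 1 counts in the control cultures of Myc310, LM1 and LM1-LM and 2 to 19 counts in their deprived cultures, and 0 counts in all MYAZ16.1e cultures. Nnmt passed the filter only through these deprived cultures, so it is described by its counts alone.

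Of 15 partners of DNA methylation 13 were in the table and 12 were tested. In MYAZ16.1e 4 rose and 5 fell, in Myc310 7 rose and 3 fell, in LM1 8 rose and 4 fell, and in LM1-LM 8 rose and 3 fell. Of all genes 26.6, 32.8, 35.8 and 36.5% rose and 27.1, 33.9, 35.3 and 35.9% fell, in that order of lines. Uhrf1, which brings DNMT1 to newly replicated DNA, fell with log2 fold changes of -0.82, -0.98, -1.22 and -1.18, each larger than that of Dnmt1 in the same line. Uhrf1 went from 361 to 381 CPM in the control cultures of MYAZ16.1e to 209 to 215 CPM in the deprived ones, and from 334 to 347 CPM to 141 to 143 CPM in LM1. Hells, a remodeller needed for DNA methylation, fell in all 4 lines, with log2 fold changes between -0.89 and -1.21. Tet2, which oxidises 5-methylcytosine, rose by 0.56, 1.16, 1.53 and 1.39 on the log2 scale. The Tet2 rise was larger than in MYAZ16.1e for LM1 by 0.97, for LM1-LM by 0.83 and for Myc310 by 0.60 (largest adjusted p = 3.65e-06 by edgeR's interaction test). Trdmt1, an RNA methyltransferase related to the DNMT family, rose in every line (0.45, 0.72, 0.69 and 0.49), and Mbd3 fell in every line. Dnmt3l, a cofactor of DNMT3A and DNMT3B without catalytic activity, rose by 0.97 for Myc310, 1.37 for LM1 and 1.21 for LM1-LM, and had at most 3 counts in any MYAZ16.1e culture.

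**Figure D4:**
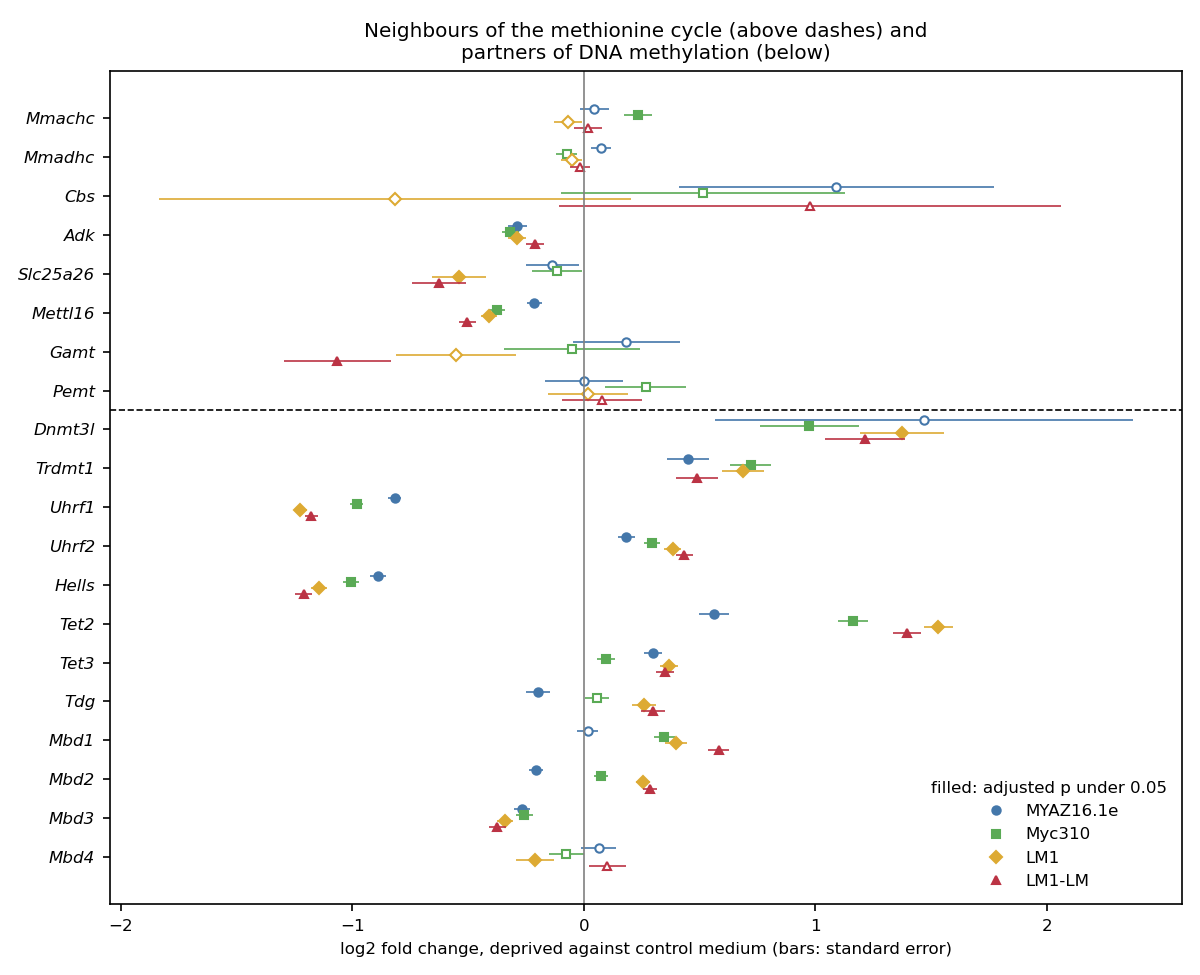
Log2 fold change after deprivation, with standard errors, of the tested neighbours of the methionine cycle (above the dashed line) and partners of DNA methylation (below) in the 4 lines; Nnmt is left out because its control counts are 0 or 1, and Cbs had at most 16 counts in any of these cultures. Uhrf1 and Hells lie left of zero in all 4 lines, and Tet2 and Trdmt1 right of zero in all 4.

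The second comparison asked how the tumour-derived and lung-derived lines differed in control medium. In the fit over libraries, Dnmt3a, Mtr, Mtrr and Mat2a were higher and Ahcy lower in Myc310, the LM lines and the LM-LM lines than in the MYAZ lines. For Mtr and Mat2a the line means of the MYAZ lines and the lung-derived lines overlapped. Of the 10 members 4 were higher and 1 lower in Myc310, where 50.9% of 13795 genes were called by edgeR's quasi-likelihood test. In the LM lines 4 were higher and 2 lower against 60.8% of all genes, and in the LM-LM lines 4 were higher and 2 lower against 62.8%. The 3 contrasts share the MYAZ cultures and are not independent. The members' median log2 differences were 0.17, 0.02 and -0.01, beside medians of -0.02, 0.00 and -0.01 over all genes.

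Dnmt3a was higher in Myc310 and each of its derivatives than in the MYAZ lines. Line means were 36.7 CPM in MYAZ16.1e, 37.0 CPM in MYAZ12.3i and 34.1 CPM in MYAZ6.6g, against 49.3 CPM in Myc310. The LM lines were at 51.9, 56.9 and 65.7 CPM, and LM1-LM had 52.2 CPM, LM3-LM 54.2 CPM and LM2-LM 65.9 CPM. No culture of Myc310 or its derivatives overlapped a MYAZ culture. In descending order LM2-LM and LM3 overlapped, LM2, LM3-LM, LM1-LM and LM1 followed with each neighbour overlapping the next, Myc310 lay below them, and MYAZ6.6g was lowest, apart from the MYAZ lines next to it. The log2 difference from MYAZ was 0.70 in LM (adjusted p = 7.50e-11), 0.66 in LM-LM (adjusted p = 2.24e-10) and 0.45 in Myc310 (adjusted p = 6.60e-05) by edgeR's quasi-likelihood test over libraries.

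Ahcy also separated the families. Its means were 133, 123 and 131 CPM in MYAZ16.1e, MYAZ12.3i and MYAZ6.6g and 94.2 CPM in Myc310. In the LM lines they were 99.2, 93.6 and 97.0 CPM, and in the LM-LM lines 104, 101 and 85.7 CPM. The lowest MYAZ culture (120 CPM) lay above the highest culture of the other family (110 CPM). The log2 differences were -0.46, -0.42 and -0.43 (largest adjusted p = 1.97e-06 by edgeR's quasi-likelihood test), and -0.44, -0.41 and -0.44 with the copy's counts added.

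Mtrr was at 25.8, 32.4 and 37.9 CPM in the MYAZ lines, 39.5 CPM in Myc310, 42.8 to 44.8 CPM in the LM lines and 41.5 to 45.5 CPM in the LM-LM lines. The MYAZ lines differed among themselves, and the log2 differences from them were 0.46 in LM, 0.44 in LM-LM and 0.30 in Myc310 (largest adjusted p = 0.00855, edgeR's quasi-likelihood test). Mtr overlapped between families, with 39.8 to 47.1 CPM in the MYAZ lines and 40.9 to 59.4 CPM in the LM and LM-LM lines, LM3 and LM3-LM being as low as the MYAZ lines. Its differences were 0.35, 0.26 and 0.24 (largest adjusted p = 0.0135). Without LM1 the LM difference was 0.15, and without LM1-LM the LM-LM difference was 0.12, neither past the threshold.

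Mat2a was highest in Myc310 (575 ± 3.69 CPM, SD, n = 3), apart from every other line. MYAZ16.1e, at 470 CPM, overlapped LM1 and LM3-LM, while MYAZ6.6g (337 CPM) and MYAZ12.3i (296 CPM) lay below all LM and LM-LM lines. Against MYAZ the log2 difference was 0.64 for Myc310 (adjusted p = 2.78e-05), 0.31 for LM (adjusted p = 0.00201) and 0.22 for LM-LM (adjusted p = 0.0211) by edgeR's quasi-likelihood test. With 1 line left out, the LM difference ran from 0.18 to 0.52. The LM-LM difference missed the threshold without MYAZ12.3i (0.09), MYAZ6.6g (0.16) or LM3-LM (0.14).

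Dnmt3b was higher in MYAZ12.3i (5.28 CPM) and MYAZ6.6g (5.48 CPM) than in MYAZ16.1e (2.55 CPM) and Myc310 (2.47 CPM), and lay between 0.352 CPM in LM3-LM and 1.86 CPM in LM2-LM in the lung-derived lines. The log2 differences from MYAZ were -1.55 in LM (adjusted p = 6.41e-05) and -2.01 in LM-LM (adjusted p = 1.89e-06), and -0.85 in Myc310 (95% interval -1.71 to 0.01, adjusted p = 0.108). Dnmt1 was lowest in MYAZ16.1e (322 CPM), apart from all other lines, which lay between 372 and 429 CPM, and its log2 differences from MYAZ were -0.02 in LM-LM, 0.08 in LM and 0.09 in Myc310, none of which passed; without MYAZ16.1e the LM-LM difference was -0.14 (adjusted p = 2.60e-05, edgeR). Mat2b, Ahcyl1 and Ahcyl2 did not pass in any of the 3 contrasts. In at least 1 alternative analysis, however, Mat2b passed in each contrast, Ahcyl1 in Myc310 and LM, Ahcyl2 in LM and LM-LM, and Dnmt3b in Myc310. Ahcyl2 varied within the lung-derived lines, at 39.0 CPM in LM1 and 38.5 CPM in LM1-LM but 23.5 to 29.3 CPM in LM2, LM3, LM2-LM and LM3-LM.

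**Figure D5:**
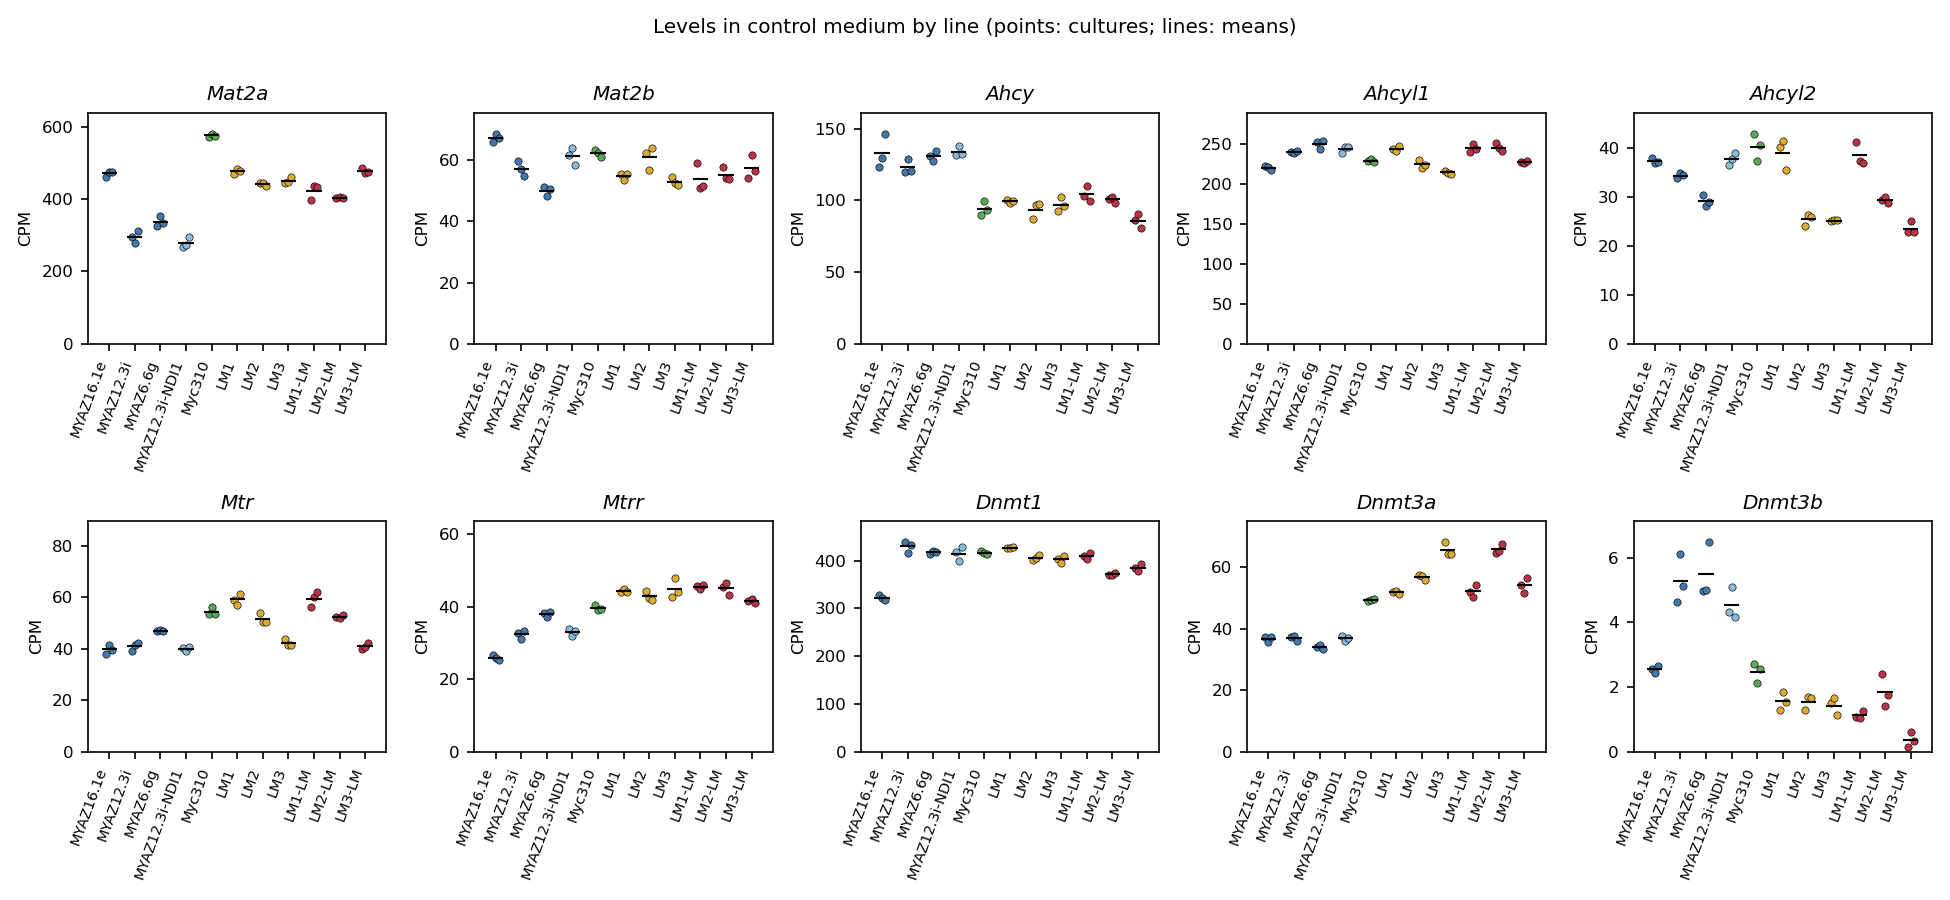
CPM of each member in the control cultures of the 11 lines, with line means; each axis starts at 0. Ahcy and Dnmt3a separate the 4 MYAZ-derived lines from Myc310 and its derivatives without overlap, and Mat2a is highest in Myc310 at 575 CPM.

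Cultures of a line are not independent lines, so the contrasts were also made over lines. All LM and LM-LM lines descend from Myc310, so these tests cannot tell a difference between subtypes apart from a difference of that 1 founder line. Myc310 is then 1 sample with no replicate, assumed to vary like the other groups. With counts summed per line, the adjusted p of edgeR's test for Ahcy was 0.0493 for Myc310, 0.00871 for LM and 0.00716 for LM-LM, for Dnmt3a 0.116, 0.00433 and 0.00488, and for Mtrr 0.302, 0.0302 and 0.0312. For Dnmt3b it was 0.545, 0.0723 and 0.0283, so the LM call was lost. Mat2a (0.0968 to 0.285) and Mtr (0.312, 0.223 and 0.241) no longer passed in any contrast. In an exact permutation test over 3 against 3 line means, two-sided, the smallest p that the design allows is 0.1. Ahcy, Mtrr, Dnmt3a and Dnmt3b reached that exact p of 0.1 for both LM and LM-LM against MYAZ, with no overlap of lines, and 0.25 after adjustment over 20 such comparisons. The share of all genes whose lines do not overlap was not computed, so nothing particular to these members is read from it. The exact p of Mat2a was 0.3 in both.

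In control medium the summed basal, endothelial and leukocyte markers separated these families, while the fibroblast and luminal sums overlapped between them. Endothelial markers summed to 4.19 to 6.49 CPM in the MYAZ lines and to 0.207 to 0.868 CPM in Myc310 and its derivatives. Leukocyte markers summed to 4.72 to 5.81 CPM in the MYAZ lines and were higher in Myc310 and each derivative. The basal list (5 of 5 genes in the table) summed to 7.50, 313 and 248 CPM in MYAZ16.1e, MYAZ12.3i and MYAZ6.6g and to between 0.111 and 1.84 CPM in Myc310, the LM and the LM-LM control groups. Acta2 carried most of it, and the basal keratins Krt5 and Krt14 had at most 5 and 24 counts in a library. The fibroblast list (7 of 7 genes) summed to 9.13, 85.5 and 32.2 CPM in the MYAZ lines and to 1.40 to 21.2 CPM in Myc310 and its derivatives. The luminal list (5 of 5 genes) summed to 1146, 341 and 718 CPM in the MYAZ lines and to 1029 to 2359 CPM in Myc310 and its derivatives, and of 14 S-phase genes 6 were higher and 2 lower than MYAZ in Myc310, 9 and 2 in LM, and 8 and 2 in LM-LM (edgeR). Of all genes 23.8, 30.3 and 30.5% were higher and 27.1, 30.5 and 32.3% lower in these contrasts. Their part in the differences was not tested.

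No member passed between the LM lines and Myc310, where 4.94% of all genes were called by edgeR; 3 members had an unadjusted p under 0.05 and DESeq2 called 0. The nearest were Mat2a, lower by 0.33 on the log2 scale in LM (adjusted p = 0.101), Dnmt3a, with a difference of 0.24 (adjusted p = 0.117), and Ahcyl2, with -0.43 (adjusted p = 0.134). Without LM1 the Dnmt3a difference was 0.33 (adjusted p = 0.00957) and that of Ahcyl2 -0.65 (adjusted p = 0.00259), both past the threshold in edgeR's test. Between the LM-LM and LM lines 0 members passed against 0.768% of all genes called by edgeR, 0 had an unadjusted p under 0.05 and DESeq2 called 0. The intervals of the log2 differences lay within -0.25 and 0.25 for all members but Dnmt3b (-1.06 to 0.15).

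In control medium, partners and neighbours with fewer than 10 counts in some culture of every line on one side are described by counts alone. Of the other 11 partners 1 was higher and 5 lower in Myc310 than in MYAZ, 1 and 5 in LM, and 1 and 4 in LM-LM by edgeR's quasi-likelihood test, beside 50.9, 60.8 and 62.8% of all genes called. The methyl-CpG binding protein gene Mbd2 was higher by 0.32, 0.30 and 0.35 on the log2 scale. Uhrf2, a relative of Uhrf1, was lower, with log2 differences of -0.65, -0.42 and -0.52. Mbd1 was lower as well, with -0.32, -0.40 and -0.43, and Tet2 differed by -0.49 in Myc310. Dnmt3l had 0 to 4 counts in the MYAZ libraries, 29 to 35 in Myc310 and 41 to 179 in the LM libraries. Dnmt3l passed the filter only through Myc310 and its derivatives, so no test against MYAZ is given. Between LM and Myc310, both well above the filter, it was higher in LM by 1.87 (adjusted p = 0.0120, edgeR).

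Of the neighbours, 2 of 7 were higher and 2 lower in Myc310 than in MYAZ, 0 of 8 higher and 2 lower in LM, and 2 of 7 higher and 1 lower in LM-LM. Mmadhc, which handles cobalamin, was lower in all 3 contrasts (-0.36, -0.35 and -0.31). Slc25a26 was higher in Myc310 (0.41) and LM-LM (0.18), Adk in Myc310 (0.35) and Mmachc in LM-LM (0.19). Mettl16 was lower in LM (-0.20). Gamt differed from MYAZ by -1.41 in Myc310 and was higher in LM than in Myc310 by 1.33.

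MYAZ12.3i-NDI1 was compared with MYAZ12.3i in control medium. How NDI1 was introduced is not given in the sources used here, and the comparison is with the parental line, so NDI1 and the making of the line cannot be told apart. Of the 10 members 1 was higher and 0 lower, where 17.4% of 12841 genes were called by edgeR. Ahcy was higher by 0.12 on the log2 scale (134 against 123 CPM, adjusted p = 0.0331), and the lowest NDI1 culture (131.6 CPM) lay just above the highest parental one (128.9 CPM). The call was lost without any 1 of 4 single cultures, namely cultures 1 and 3 of the parental line and 1 and 2 of the NDI1 line (adjusted p up to 0.150, edgeR). Summed with the copy the difference was 0.10 (adjusted p = 0.0343). Mat2a was at 278 ± 15.8 CPM against 296 ± 16.2 CPM (SD, n = 3 each), a difference that missed the threshold (-0.10, adjusted p = 0.128, edgeR). The Mat2a difference missed it in 8 of 12 alternative analyses and passed in the others. Dnmt3a was at 36.9 against 37.0 CPM. Of the listed neighbours and partners, Mettl16 (0.17, adjusted p = 0.00994) and Uhrf1 (0.09) were higher and Adk (-0.15) and Uhrf2 (-0.12) lower by edgeR's test. Of 14 S-phase genes 9 were higher and 0 lower, beside 8.14% of all genes higher and 9.27% lower. Basal markers summed to 213 against 313 CPM, fibroblast markers to 97.2 against 85.5 CPM and luminal markers to 368 against 341 CPM. Their part in the Ahcy difference was not tested.

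As a description of the pattern over the 15 group means, each member was set beside 8954 well-expressed genes by Pearson's r of log2 CPM. Groups of 1 line and of related lines are not independent of one another, so no test is attached. Closest to Mat2a were Ptpn3 (r = 0.96), Hadh (0.95) and Nrarp (0.95), and closest to Dnmt3a Polr2g, Galnt7 and Fhl3 (0.96 each). Ahcy was closest to its own copy Ahcyl (0.99), then Clp1 (0.99) and Ube2v1 (0.98). Mtr was nearest to Tpr, Nbea and Ddb1, and Mtrr to Zfp65, Hhipl1 and Dgka, with r from 0.96 to 0.97. Dnmt1 was nearest to Kank2, Ptpn9 and Degs1 (0.92 to 0.94), and Dnmt3b to Cilk1, Echdc2 and Ctif (0.94 to 0.95). Mat2b lay nearest to Eid1, Mrpl22 and Erbb2 (0.91 to 0.92). Ahcyl1 reached at most 0.88 with Sar1a, ahead of Rdx and Son, and Ahcyl2 at most 0.85 with Chchd6, ahead of Rhbdd3 and Gpatch8.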

How the data were processed

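The deposited table holds whole-number raw counts per gene, which the authors made from directional paired-end polyadenylated RNA libraries with STAR and RSEM on GRCm38; DESeq2 1.38.3 and R 4.2.2 are named in the submitters' processing notes. The counts were used as deposited in edgeR 4.0.16 (R 4.3.3): TMM factors (0.925 to 1.04), filterByExpr (minimum count 10), quasi-likelihood test, Benjamini-Hochberg adjustment over all genes tested, threshold 0.05. The deprivation fit held 24 libraries in 8 groups, the subtype fit 30 control libraries by subtype, and the NDI1 fit 6 libraries. Lines in control medium were also compared by exact permutation. Library totals of 19517900 to 29020000 counts limit precision most for Dnmt3b. All pairs of cultures of a group differed by more than sampling noise. FPKM used the union of GENCODE vM21 exons. Analyses were tested on simulated data. Members and gene lists were chosen with earlier results of these data known. All 10 members are named, with up to 2 of the largest increases and decreases called among neighbours and partners for deprivation, subtypes and NDI1, others chosen after their values were seen, and the 3 genes most like each member. The Mat2a motif search, the summing of Ahcy with its copy and the fit without both libraries numbered outside the series of their group were chosen after seeing the data. Alternatives were RLE scaling, no filter, a replicate block, DESeq2 1.42.0, narrower fits, counts summed per line and leaving out each library or line. Of the listed genes, 7 were not analysed here. A further 2 are not reported here and are left out of the list counts.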

Additional observations from a re-analysis of the deposited data

Results flagged for a closer look

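Differences between the deprivation responses of lines, tested as interaction terms against MYAZ16.1e in edgeR's quasi-likelihood fit, passed an adjusted p of 0.05 in 20 of 30 tests on members, which share the MYAZ16.1e cultures, beside 40.3, 52.2 and 54.8% of all genes called in the contrasts of Myc310, LM1 and LM1-LM. For Mat2a the difference of log2 fold changes was -0.33 (Myc310), -0.53 (LM1) and -0.56 (LM1-LM), and for Dnmt3a, in the same order, -0.61, -0.87 and -0.92. Mat2b fell further than in MYAZ16.1e in each line, with differences of -0.37, -0.17 and -0.21, and Ahcy in Myc310 (-0.22) and LM1-LM (-0.16). With the counts of its copy added, Ahcy passed in all 3 lines (-0.24, -0.18 and -0.16). Ahcyl1 differed by 0.08, 0.19 and 0.12. Mtrr differed by 0.18 in Myc310, and Mtr by 0.22 in LM1 and 0.18 in LM1-LM. Dnmt1 differed by -0.08 in LM1, and Dnmt3b by -1.36 in LM1 and -1.23 in LM1-LM. These Dnmt3b values rest on few counts in the deprived cultures of LM1 and LM1-LM and are uncertain. The second culture of LM3 stood apart from the other LM control cultures in Mtrr (47.8 CPM), with a gap of 0.519 of the whole range of 9 cultures. Of 30 groups examined this way 1 was flagged. The cutoff assumes 9 independent cultures, which 3 cultures of each of 3 lines are not, so no chance rate is given.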

How the results depend on the processing

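Of the 40 deprivation results of members 35 kept their direction and side of the threshold under every alternative, among them Mat2a, Ahcy, Mtr, Mtrr, Dnmt1 and Dnmt3a in all 4 lines; of the 30 interaction results 19 did, of the 50 subtype results 29, and of the 10 NDI1 results 8. None reversed a called direction. With counts summed per line, members called numbered 1 for Myc310 against MYAZ and 3 for LM against MYAZ, and all genes called 1429, 3788 and 4226 for Myc310, LM and LM-LM against MYAZ, 2 for LM against Myc310 and 0 for LM-LM against LM; fewer samples enter that fit, and Myc310 is 1 sample there, assumed to vary like the other groups. All genes called for LM-LM against LM numbered 65 without the filter and 253 with DESeq2. NDI1 members called numbered 2 without the filter and 0 with all control libraries in the fit. Same-numbered cultures deviated together with correlations of -0.388 to 0.301, so the numbers were not taken to pair cultures; with the replicate block, 68 genes were called for LM-LM against LM and 2 NDI1 members (Mat2a added), Dnmt1 in the LM1 interaction was lost (adjusted p = 0.0537, edgeR), and no other call on a member changed. Leaving out 1 library or line, members called ran from 4 to 7 in the LM1-LM interaction (4 without deprived culture 2 of LM1-LM), 5 to 8 for Myc310 against MYAZ (8 without MYAZ16.1e), 0 to 2 for LM against Myc310 (2 without LM1) and 0 to 2 for NDI1; all genes called ran from 291 to 1495, from 18 to 2063 (without LM2-LM and without LM3-LM) and from 1243 to 2209 for LM against Myc310, LM-LM against LM and NDI1. Among single deprivation calls, Ahcyl1 in MYAZ16.1e and LM1-LM and Ahcyl2 in Myc310 and LM1 were lost in 4 to 8 of 12 alternatives, most of them leaving out 1 culture. The cause was not tested. In the 3 subtype contrasts against MYAZ, 30 of 30 member results held without both libraries numbered outside the series of their group. The deprivation and NDI1 fits each hold 1 of these libraries, which was there left out only as 1 of the single cultures. Depth limits Dnmt3b, at 3 to 159 counts, and Nnmt and Dnmt3l.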
